A study of Mus musculus with 15 samples.

Results

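Transforming growth factor beta (TGF-beta) signalling was examined in the kidneys of mice infused with angiotensin II through 9 genes: the ligands Tgfb1, Tgfb2 and Tgfb3, the latent TGF-beta binding protein Ltbp1, the receptors Tgfbr1 and Tgfbr2, the receptor-activated Smads Smad2 and Smad3, and the inhibitory Smad Smad7. The genes were chosen by name, and each gene's level was the sum of the deposited values of its annotated transcripts in FPKM (fragments scaled to transcript length and to the mouse's total). Of the 9 members, 8 were among the 13933 genes with values in all 15 mice and 7 were among the 12366 tested. The question was whether angiotensin II moved these genes and whether Qingda granule (QDG), a Chinese herbal preparation, moved them again.

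All 15 mice were male, wild type and of the C57BL/6 strain, and were 8 weeks old when purchased. The 5 Control mice received saline for 28 days, the 5 AngII mice received angiotensin II at 500 ng/kg/min for 28 days from an implanted osmotic pump, and the 5 AngII+QDG mice received the same infusion plus QDG by gavage at 1.145 g/kg/day. The Control and AngII mice were gavaged with water in place of QDG. RNA depleted of ribosomal RNA was sequenced from whole renal tissue, so a difference in the number of cells of a type and a difference in RNA per cell cannot be told apart.

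TGF-beta is secreted in a latent complex that is held in the extracellular matrix by latent binding proteins and released by integrins and proteases. The freed ligand joins the type II receptor to the type I receptor, which phosphorylates Smad2 and Smad3, and these enter the nucleus with Smad4 and bind target genes. Smad7 and Pmepa1 are themselves targets of the pathway and dampen it, and in the kidney the pathway is best known for driving matrix deposition by fibroblasts and mesangial cells.

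The values implied totals of 68922643 to 81329510 fragments per mouse, 75034572 to 81329510 in Control, 70697509 to 79291766 in AngII and 68922643 to 76143543 in AngII+QDG. Kidney markers were present throughout: the summed FPKM of 6 proximal tubule genes was 4801 or more and that of 4 thick ascending limb genes 776 or more in every mouse. None of the 5 lymphocyte markers had a value in all 15 mice. Over all 12366 genes the median log2 fold change was 0.08 in AngII vs. Control, -0.02 in AngII+QDG vs. AngII and 0.06 in AngII+QDG vs. Control, on the log2(FPKM + 1) scale used for all fold changes here.

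One receptor exon is printed because it is the coding difference between transcripts compared below, and 2 promoter windows are printed for context. The receptor gene Tgfbr2 was measured as a pair of transcripts that differ in their coding sequence by a single exon of 75 bases, or 25 codons, which is exon 2 of the 8 exons of ENSMUST00000061101 and is skipped in ENSMUST00000035014. The transcripts also differ outside the coding sequence: ENSMUST00000061101 is 8092 bases long and ends at 116084293, and ENSMUST00000035014 is 3476 bases long and ends at 116088929. The exon lies on the minus strand of GRCm38 (mm10) at chr9:116158271-116158345, within the coding sequence. It is shown in capitals, with 15 bases of the neighbouring exon on each side in lower case.
Tgfbr2 exon 2: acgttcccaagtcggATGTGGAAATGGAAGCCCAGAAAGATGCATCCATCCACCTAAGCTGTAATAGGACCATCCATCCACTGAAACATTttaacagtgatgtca
The windows are the 250 bases before the start of Tgfb1, the more abundant of the TGF-beta ligands with values (chr7:25686752-25687001, plus strand), and of Ltbp4, the latent binding protein that was called below (chr7:27333664-27333913, minus strand), both from RefSeq on GRCm38.p6. Capitals mark GGGCGG on either strand, the GC box bound by Sp1 family factors.
Tgfb1 promoter: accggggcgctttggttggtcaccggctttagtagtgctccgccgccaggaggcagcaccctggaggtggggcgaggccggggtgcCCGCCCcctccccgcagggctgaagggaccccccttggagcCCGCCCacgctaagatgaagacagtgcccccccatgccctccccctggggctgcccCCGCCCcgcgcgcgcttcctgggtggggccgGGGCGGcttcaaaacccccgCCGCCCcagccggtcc
Ltbp4 promoter: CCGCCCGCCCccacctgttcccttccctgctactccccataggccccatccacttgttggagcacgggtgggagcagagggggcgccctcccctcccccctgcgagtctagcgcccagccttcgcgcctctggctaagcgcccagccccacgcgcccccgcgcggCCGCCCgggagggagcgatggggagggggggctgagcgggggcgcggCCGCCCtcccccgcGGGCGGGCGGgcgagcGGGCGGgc
Tgfb1 held 5 GC boxes and Ltbp4 held 7, overlapping copies counted singly, while 32.7% of 32851 mouse promoter windows held at least 1. Neither window held CAGAC, the core of the Smad binding element (42.2% of windows), GTCTAGAC, its palindrome (0.167%), or TGANTCA, the AP-1 site (6.75%), on either strand. Windows were also read for the main start sites of Tgfbr1 and Smad3, each with 2 GC boxes and no CAGAC, of Tgfbr2, with 1 CAGAC, and of Ltbp1, with 2 CAGAC.

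The members ordered by level, which FPKM allows because it is per length, ran from Tgfbr2 (mean of 15 mice 15.8 FPKM) through Smad2 (8.75), Smad3 (7.26), Smad7 (6.25), Tgfbr1 (5.73), Tgfb1 (5.40) and Ltbp1 (1.90) to Tgfb3 (0.608 FPKM). Tgfbr2, with a lowest mouse at 13.1 FPKM, lay above every value of Smad2, whose highest was 11.1 FPKM. The lowest Tgfb1 value, 3.68 FPKM, was above the highest Ltbp1 value, 3.30 FPKM. All other neighbours in this order overlapped between mice.

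**Figure D1:**
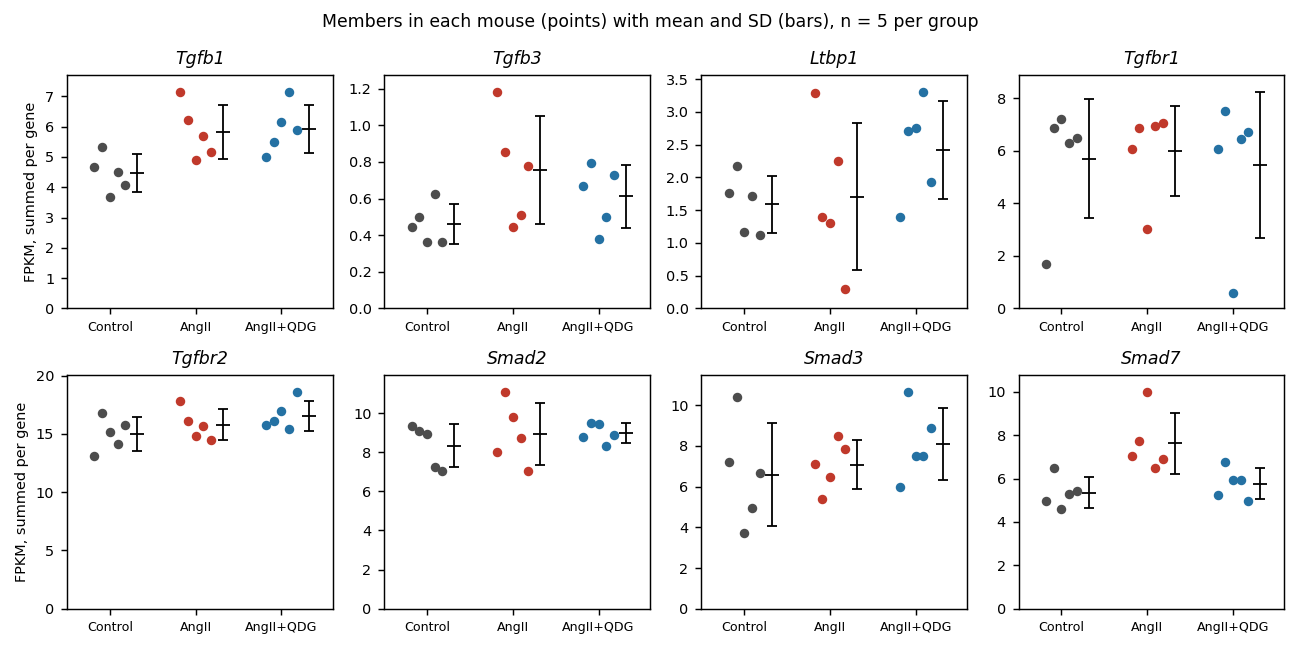
FPKM summed per gene (y axis, linear from 0) for the 8 members with values, by group (x axis); each point is 1 mouse and the bar beside the points is the mean with its SD, n = 5 mice per group. Smad7 is the member whose 5 AngII mice all lie above the 5 Control mice, by a margin of 6.474 against 6.470 FPKM, and single low mice are seen for Tgfbr1 at 1.69, 3.05 and 0.603 FPKM.

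In AngII vs. Control, Smad7, the inhibitory Smad, rose, and it was the 1 member of 7 tested with an adjusted p under 0.05, where 5.94% of all 12366 genes passed. This call was lost under quantile normalization, median scaling, a fit of the 2 groups alone and several omissions of single mice, given below. No member passed in AngII+QDG vs. AngII, where 1.81% of genes did, or in AngII+QDG vs. Control, where 0.129% did. At an unadjusted p under 0.05 the limma fit gave 2 members, Tgfb1 and Smad7, in AngII vs. Control (22.7% of all genes), 1, Smad7, in AngII+QDG vs. AngII (16.4%) and 1, Tgfb1, in AngII+QDG vs. Control (14.4%). None reached the study's threshold of a fold change of 2 with an unadjusted p under 0.05 in any of the 3, where 1.04%, 0.817% and 0.728% of all genes did. Of the 11 member transcripts tested, limma called none in any comparison (0.691%, 0.0972% and 0.0243% of all 28812 transcripts), and 3, 1 and 1 had an unadjusted p under 0.05 (15.9%, 11.3% and 10% of all transcripts). For the 7 tested members the median difference on the log2 scale was 0.12, 0.03 and 0.14 in these comparisons. Under both quantile normalization and median scaling the first became 0.03, with 4 of 7 members above 0 where there had been 6, and the last became 0.08 and 0.05. The first 2 share the AngII mice, and each of them shares 1 group with the third.

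Tgfb1, the ligand made by most cells and the main form in the injured kidney, was measured as 1 transcript (ENSMUST00000002678, chromosome 7, 25687002 to 25705077, from 600 to 1232 fragments per mouse). It was at 4.68, 5.33, 3.68, 4.51 and 4.09 FPKM in the Control mice, 7.14, 6.21, 4.89, 5.70 and 5.17 FPKM in the AngII mice, and 5.01, 5.49, 6.15, 7.13 and 5.88 FPKM in the AngII+QDG mice. Of the AngII mice, 3 were above the highest Control mouse, as were 4 of the AngII+QDG mice, and the groups overlapped. The means were 4.46 ± 0.626, 5.82 ± 0.895 and 5.93 ± 0.793 FPKM (SD, n = 5 each). The log2 fold change of Tgfb1 in AngII vs. Control was 0.32 (standard error 0.11, adjusted p = 0.105) and did not pass. With QDG its difference from AngII was 0.03, with a 95% interval of -0.21 to 0.26 (adjusted p = 0.944). AngII+QDG vs. Control gave 0.35 (adjusted p = 0.184).

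Tgfb3, a ligand of mesenchymal cells, was below the limit for testing, at 1 FPKM or more in 1 mouse of 15 (88 to 317 fragments per mouse, chromosome 12, 86056745 to 86079041). It was at 0.447, 0.498, 0.362, 0.625 and 0.361 FPKM in Control, 1.18, 0.854, 0.445, 0.510 and 0.780 FPKM in AngII, and 0.666, 0.792, 0.377, 0.497 and 0.726 FPKM in AngII+QDG. The groups overlapped, with 3 mice of each infused group above the highest Control mouse. When all genes were tested without the limit, its log2 fold changes were 0.25 (adjusted p = 0.215), -0.11 (adjusted p = 0.688) and 0.14 (adjusted p = 0.630). Tgfb2 was listed in none of the 15 files and was not analysed here. Tgfb1 made up 90.7 ± 1.64% of the summed FPKM of Tgfb1 and Tgfb3 in Control, 88.8 ± 2.76% in AngII and 90.5 ± 3.14% in AngII+QDG (SD, n = 5 each). The share of Tgfb1 differed by -1.88 percentage points in AngII vs. Control, less than the SD between AngII mice but more than that between Control mice, and by -1.13 without AngII 1 (exact two-sided permutation test, p = 0.270, adjusted p = 0.619 over 3 comparisons).

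Ltbp1, which tethers latent TGF-beta to the matrix, varied widely between mice. It was at 1.76, 2.17, 1.17, 1.72 and 1.13 FPKM in Control, 3.29, 1.39, 1.30, 2.24 and 0.296 FPKM in AngII, and 1.39, 2.71, 2.75, 3.30 and 1.93 FPKM in AngII+QDG (chromosome 17, 116 to 1405 fragments per mouse). The AngII mice alone ran from the lowest of the 15 values to the second highest. Its log2 fold change was -0.03 (adjusted p = 0.968) in AngII vs. Control and 0.42 (95% interval -0.15 to 0.99, adjusted p = 0.471) in AngII+QDG vs. AngII. That 0.42 became as much as 0.81 with smaller pseudocounts, and 0.18 without AngII 5 or 0.61 without AngII 1, and passed in none of these. AngII+QDG vs. Control gave 0.39 (95% interval -0.18 to 0.96, adjusted p = 0.532), and 0.29 to 0.59 over the alternatives that kept all mice. The -0.03 in AngII vs. Control ran from -0.22 to -0.03 over those alternatives and from -0.22 to 0.21 with single mice left out. The shorter transcript ENSMUST00000112514, which starts downstream, carried 49.1 ± 15.1% of the gene in Control, 64.5 ± 19.2% in AngII and 67.5 ± 11.7% in AngII+QDG (SD, n = 5 each). The widest of these differences, 18.4 percentage points in AngII+QDG vs. Control, was not separated (exact two-sided permutation test, p = 0.0794, adjusted p = 0.476 over 12 comparisons of transcript shares).

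Tgfbr2, the type II receptor that binds the ligand first, had the smallest standard error of the 7, at 0.08 on the log2 scale. It was at 13.1, 16.8, 15.1, 14.1 and 15.8 FPKM in Control, 17.8, 16.1, 14.8, 15.7 and 14.5 FPKM in AngII, and 15.7, 16.1, 16.9, 15.4 and 18.6 FPKM in AngII+QDG. Its log2 fold change was 0.07 in AngII vs. Control, with a 95% interval of -0.10 to 0.24 (adjusted p = 0.640), and turned below 0 under quantile normalization and median scaling. AngII+QDG vs. AngII gave 0.06 (95% interval -0.10 to 0.23, adjusted p = 0.741). The transcript with the 75-base exon printed above carried 72.5 ± 4.43% of the gene in Control, 65.8 ± 2.74% in AngII and 69.8 ± 4.55% in AngII+QDG (SD, n = 5 each). These shares are of whole transcripts, which also differ in length outside the coding sequence, so they do not measure the exon alone. The difference of -6.73 percentage points in AngII vs. Control was larger than the SD between mice but did not pass over the 12 comparisons (exact two-sided permutation test, p = 0.0238, adjusted p = 0.286). The form without the exon was at 3.28, 4.26, 3.90, 3.66 and 5.59 FPKM in Control and at 6.62, 5.75, 4.81, 4.77 and 5.13 FPKM in AngII. Control 5 lay inside the AngII range and the other 4 Control mice below it, and its log2 fold change was 0.33 (limma over 28812 transcripts, adjusted p = 0.243).

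Tgfbr1, the type I receptor kinase that phosphorylates Smad2 and Smad3, was at 1.69, 6.87, 7.22, 6.30 and 6.48 FPKM in Control, 6.07, 6.88, 3.05, 6.94 and 7.08 FPKM in AngII, and 6.08, 7.52, 0.603, 6.46 and 6.72 FPKM in AngII+QDG. In each group 4 mice lay between 6.07 and 7.52 FPKM and 1 lay far below. The low mice were Control 1, AngII 3 and AngII+QDG 3, and both Tgfbr1 transcripts were low in each of them. The log2 fold changes of Tgfbr1 were 0.12 (95% interval -0.82 to 1.07, adjusted p = 0.907) in AngII vs. Control and -0.27 (95% interval -1.22 to 0.67, adjusted p = 0.814) in AngII+QDG vs. AngII. Leaving out single mice turned the sign in both.

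Smad2, which carries the receptor's signal to the nucleus, was at 9.34, 9.09, 8.94, 7.23 and 7.06 FPKM in Control, 8.002, 11.1, 9.81, 8.71 and 7.05 FPKM in AngII, and 8.78, 9.50, 9.44, 8.30 and 8.90 FPKM in AngII+QDG. The groups overlapped widely. Its log2 fold change was 0.08 in AngII vs. Control (95% interval -0.15 to 0.32, adjusted p = 0.702) and turned below 0 under quantile normalization and median scaling. AngII+QDG vs. AngII gave 0.02 (95% interval -0.21 to 0.25, adjusted p = 0.952). The gene total hid a split between transcripts. ENSMUST00000091831, which lacks a coding exon of 90 bases that ENSMUST00000168423 has, was listed at 0 in Control 1, AngII 2, AngII 3 and AngII+QDG 1, 2 and 3. In those 6 mice ENSMUST00000168423 was at 8.71 to 11.0 FPKM, and in the other 9 mice it was at 3.49 to 5.20 FPKM while ENSMUST00000091831 was at 1.99 to 3.89 FPKM. The 6 mice came from all 3 groups. The fragments implied for Smad2 were 4915 to 7067 per mouse in these 6 and 2681 to 3764 in the other 9. ENSMUST00000168423 is 8089 bases long and ENSMUST00000091831 is 1645, so mice with similar summed FPKM differed in fragments. How this bears on the fold changes of Smad2 was not tested.

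**Figure D2:**
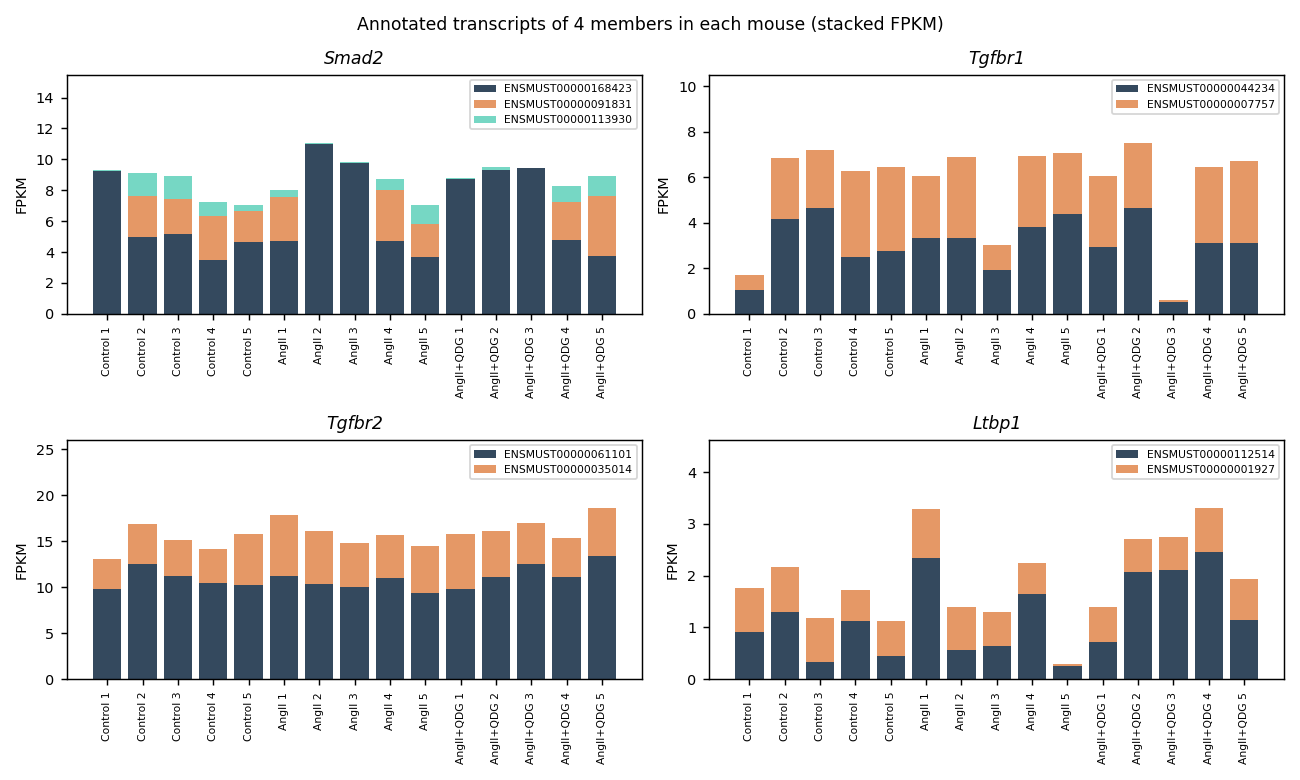
FPKM (y axis, linear from 0) of each annotated transcript, stacked, in each of the 15 mice (x axis) for Smad2, Tgfbr1, Tgfbr2 and Ltbp1. ENSMUST00000091831 of Smad2 is missing from 6 mice of all 3 groups, and the summed Tgfbr1 is at 1.69, 3.05 and 0.603 FPKM in 1 mouse of each group.

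Smad3, which binds DNA directly and drives many collagen genes, was at 7.22, 10.4, 3.73, 4.96 and 6.67 FPKM in Control, 7.13, 5.39, 6.46, 8.48 and 7.87 FPKM in AngII, and 5.97, 10.6, 7.49, 7.52 and 8.90 FPKM in AngII+QDG. The Control mice spanned nearly the whole range, from the lowest value to the second highest. Its log2 fold changes were 0.14 (95% interval -0.31 to 0.58, adjusted p = 0.747) in AngII vs. Control, 0.17 (adjusted p = 0.749) in AngII+QDG vs. AngII and 0.30 (adjusted p = 0.531) in AngII+QDG vs. Control. With single mice left out the 3 ran from -0.017 to 0.30, from 0.07 to 0.26 and from 0.15 to 0.47. It was measured as 1 transcript, ENSMUST00000034973.

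Smad7, which is induced by TGF-beta and blocks the type I receptor, was measured as 1 transcript (ENSMUST00000026999, chromosome 18, 75367529 to 75395935, 1482 to 3379 fragments per mouse). It was at 4.94, 6.47, 4.62, 5.30 and 5.42 FPKM in Control, 7.03, 7.71, 9.98, 6.47 and 6.92 FPKM in AngII, and 5.23, 6.78, 5.95, 5.93 and 4.95 FPKM in AngII+QDG. Every AngII mouse was above every Control mouse, a separation shared by 7.92% of all genes in either direction, and the closest pair was AngII 4 at 6.474 and Control 2 at 6.470 FPKM. The means were 5.35 ± 0.701, 7.62 ± 1.39 and 5.77 ± 0.714 FPKM (SD, n = 5 each). The log2 fold change in AngII vs. Control was 0.43 (standard error 0.11, adjusted p = 0.040). AngII+QDG vs. AngII gave -0.34 (95% interval -0.59 to -0.10, adjusted p = 0.142), which did not pass, with 4 of the 5 AngII+QDG mice below the lowest AngII mouse. AngII+QDG vs. Control gave 0.09 (95% interval -0.15 to 0.34, adjusted p = 0.757).

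The Smad7 call was close to the threshold. It was lost under quantile normalization, median scaling and a fit of the 2 groups alone, with adjusted p between 0.038 and 0.112 over the 8 alternatives that kept all mice, and without any of Control 1, 3, 4 or 5, AngII 1, 2, 3 or 5, or AngII+QDG 3, with adjusted p between 0.026 and 0.094 over the 15 omissions. The log2 fold change of Smad7 stayed between 0.34 and 0.50 over those alternatives and between 0.34 and 0.49 over the omissions.

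**Figure D3:**
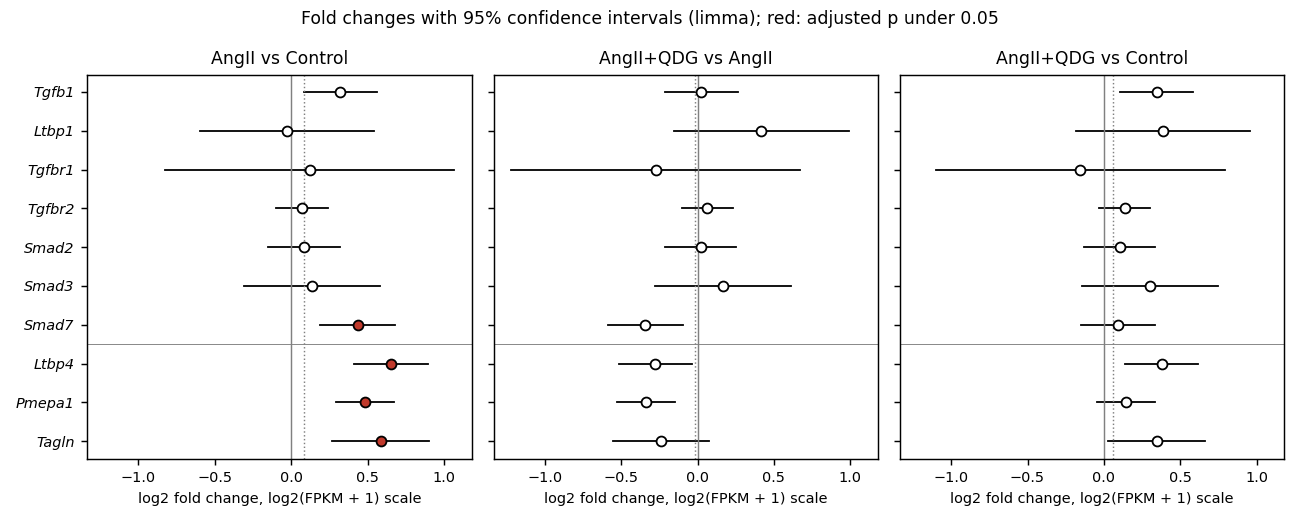
Log2 fold change of FPKM + 1 (x axis) for the 7 members tested and, below the line, the 3 other pathway genes called; points are limma estimates, bars 95% intervals, red an adjusted p under 0.05, and the dotted line the median of all 12366 genes. Red points stand in AngII vs. Control alone, at 0.43 for Smad7, 0.65 for Ltbp4, 0.48 for Pmepa1 and 0.59 for Tagln. The calls of Smad7 and Tagln are lost under quantile normalization, median scaling and a fit of the 2 groups alone. The positive AngII vs. Control points of Tgfbr2 and Smad2 turn below 0 under both scalings.

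Around the members, 80 further genes of the superfamily were listed by role, of which 70 had values in all mice and 60 were tested. In AngII vs. Control 3 of the 60 rose and none fell, a share near the 5.94% of all genes that passed. They were Ltbp4, which holds latent TGF-beta in elastic matrix, Pmepa1, a membrane protein that sequesters Smad2 and Smad3, and Tagln, an actin-binding protein of smooth muscle that TGF-beta induces. The median log2 fold change of the 60 was 0.19 in AngII vs. Control (0.09 under quantile normalization and 0.11 under median scaling), -0.04 in AngII+QDG vs. AngII (above 0 under quantile normalization, at 0.009) and 0.17 in AngII+QDG vs. Control (0.09 under both). At an unadjusted p under 0.05 in the limma fit, 14 were higher and 1 lower in AngII vs. Control, where 17.9% and 4.83% of all genes were. In AngII+QDG vs. AngII none of the 60 passed the adjusted threshold, with 5 higher and 7 lower at an unadjusted p under 0.05 (6.02% and 10.4% of all genes). At the study's threshold, met by 0.817% of all genes in that comparison, 1 of the 60 passed, Cdkn1a, a cell cycle inhibitor induced by TGF-beta and by p53, and none did in the other comparisons. Cdkn1a was at 3.41 to 9.52 FPKM in Control, 5.13 to 35.3 FPKM in AngII and 1.59 to 3.86 FPKM in AngII+QDG, with every AngII+QDG mouse below every AngII mouse, where 5% of all genes were separated in either direction (log2 fold change -1.46, unadjusted p = 0.0032 and adjusted p = 0.084 from limma). The mean of Cdkn1a in AngII was 12.2 ± 13.0 FPKM (SD, n = 5), an SD above the mean. How far its change rests on the highest AngII mouse was not tested. In AngII+QDG vs. Control none of the 60 passed, with 14 higher and 1 lower at an unadjusted p under 0.05 (10.7% and 3.72% of all genes).

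Ltbp4 (ENSMUSG00000040488, chromosome 7, 27305136 to 27337692) was at 8.47, 8.78, 6.64, 8.56 and 7.58 FPKM in Control, 17.5, 11.1, 13.5, 11.1 and 13.3 FPKM in AngII, and 9.55, 11.4, 10.8, 10.3 and 11.3 FPKM in AngII+QDG. Every mouse of both infused groups was above every Control mouse, as for 7.92% of all genes in AngII and 3.64% in AngII+QDG, either direction counted. The change of Ltbp4 on the log2 scale was 0.65 between Control and AngII (standard error 0.11, adjusted p = 0.008), -0.28 in AngII+QDG vs. AngII (adjusted p = 0.230) and 0.38 in AngII+QDG vs. Control (adjusted p = 0.154). With single mice left out the -0.28 ran from -0.33 to -0.18. Pmepa1 (ENSMUSG00000038400, chromosome 2, 173224458 to 173276533) was at 6.29, 6.36, 6.48, 6.45 and 7.13 FPKM in Control, 8.47, 10.6, 10.5, 8.95 and 9.33 FPKM in AngII, and 6.59, 8.62, 6.94, 8.31 and 6.42 FPKM in AngII+QDG. The Control mice were tightly grouped, the AngII mice all lay above them, and the AngII+QDG mice lay between and overlapped both. The log2 fold change of Pmepa1 was 0.48 from Control to AngII, with a standard error of 0.09 (adjusted p = 0.010), and -0.34 in AngII+QDG vs. AngII (95% interval -0.53 to -0.15, adjusted p = 0.068). Ltbp4 and Pmepa1 were called in AngII vs. Control under all 8 alternatives with all mice and all 15 omissions.

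Tagln (ENSMUSG00000032085, chromosome 9, 45929619 to 45936058) was at 19.5, 20.1, 20.5, 23.4 and 17.8 FPKM in Control, 43.4, 21.1, 29.3, 35.7 and 28.7 FPKM in AngII, and 25.0, 30.7, 24.7, 24.5 and 25.1 FPKM in AngII+QDG. AngII 2 lay within the Control range and the other AngII mice above it. In AngII+QDG vs. AngII the log2 fold change of Tagln was -0.24 (adjusted p = 0.449), and -0.37 to -0.12 with single mice left out. In AngII vs. Control it was 0.59 (adjusted p = 0.033). This call was lost under quantile normalization, median scaling and the fit of 2 groups, and without any of Control 1, 3 or 5 or AngII 1, 3, 4 or 5.

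**Figure D4:**
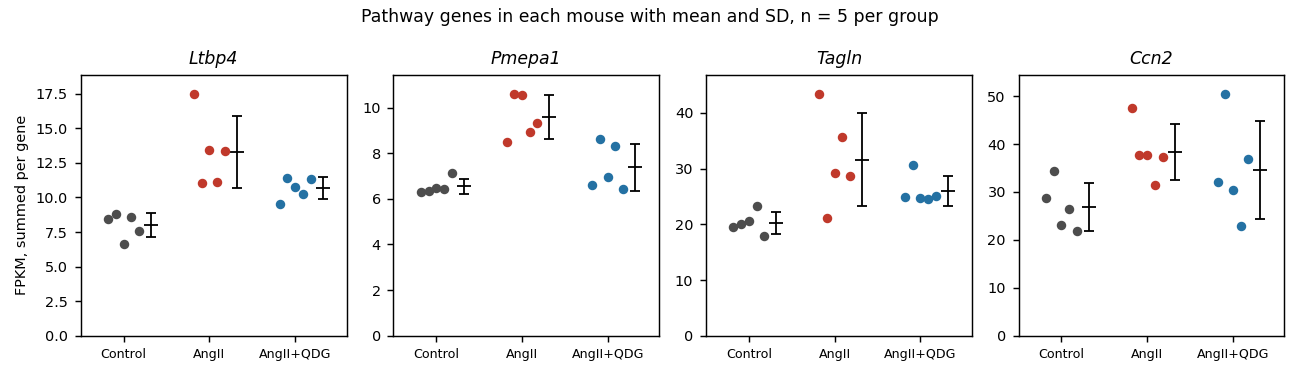
FPKM summed per gene (y axis, linear from 0) for Ltbp4, Pmepa1, Tagln and Ccn2 by group (x axis); each point is 1 mouse and the bar is the mean with its SD, n = 5. The AngII mice lie wholly above Control for Ltbp4 and Pmepa1, while for Tagln AngII 2, at 21.1 FPKM, lies among the Control mice.

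By role, the 6 other ligands tested gave no call and 3 of 6 were above 0 in AngII vs. Control. Bmp6, the most abundant of them, was at 28.1 ± 4.02 FPKM in Control and 28.5 ± 4.79 FPKM in AngII (SD, n = 5 each), and its log2 fold change of 0.01 turned below 0 under both scalings. The 8 other receptors gave no call, and 7 of 8 were above 0 in AngII vs. Control. The most abundant, the activin receptor Acvr1b, was at 14.1 ± 0.799 and 14.6 ± 0.945 FPKM (log2 fold change 0.04, below 0 under both scalings). The 4 other Smads gave no call, with Smad5, a Smad of the bone morphogenetic protein branch, at 9.88 ± 3.13 and 9.71 ± 2.94 FPKM.

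Among the 11 genes of latency and activation tested, 9 were above 0 in AngII vs. Control and Ltbp4 passed. Furin, the protease that cleaves the TGF-beta precursor, was the most abundant, at 69.1 ± 5.02 FPKM in Control and 65.2 ± 14.7 FPKM in AngII (SD, n = 5 each, adjusted p = 0.692). Of 16 inhibitors and regulators Pmepa1 passed and 11 were above 0. Sostdc1, a secreted antagonist of bone morphogenetic proteins found in the distal nephron, was at 35.6 ± 6.09 and 45.6 ± 6.34 FPKM (adjusted p = 0.137). Of 15 target genes Tagln passed and 13 were above 0, against 64.8% of all genes. Id2, a target that TGF-beta represses in epithelial cells, was the most abundant, at 124.6 ± 12.3 and 99.3 ± 11.4 FPKM (log2 fold change -0.33, adjusted p = 0.075), and it passed, lower in AngII, under quantile normalization and median scaling.

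**Figure D5:**
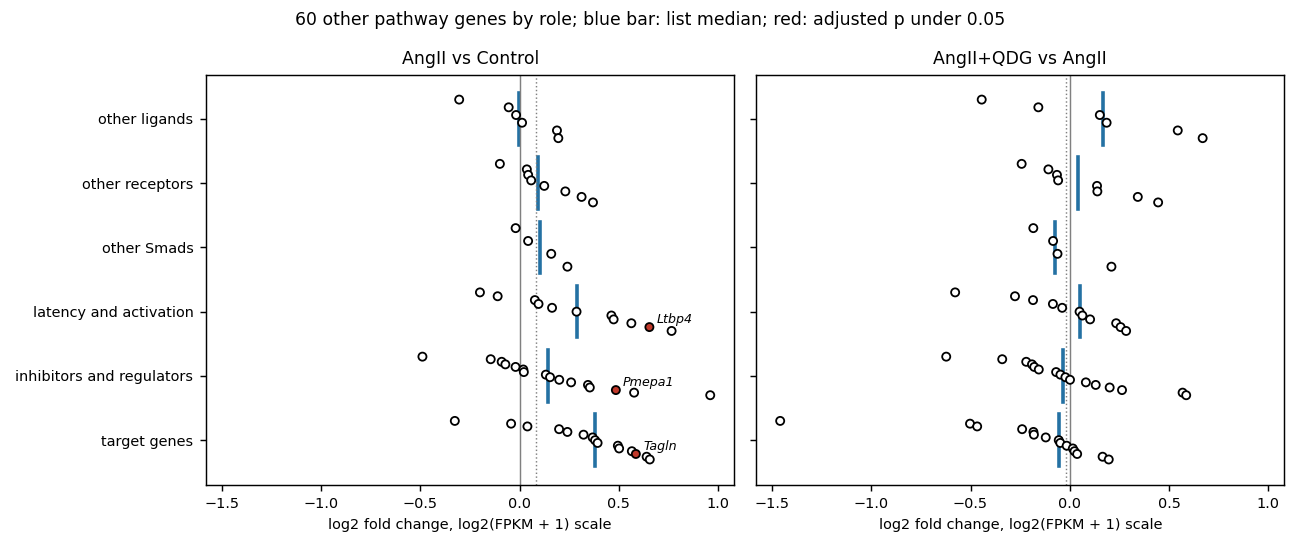
Log2 fold change of FPKM + 1 (x axis) of the 60 other pathway genes, 1 point each, by role (y axis); blue bars are list medians, red points have an adjusted p under 0.05 and the dotted line is the median of all 12366 genes. In AngII vs. Control 46 of 60 points lie above 0, which becomes 36 under quantile normalization and 38 under median scaling, and the red points are Ltbp4, Pmepa1 and Tagln.

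Ccn2 and Col1a1 are given as examples of target genes that were not called. Ccn2, a matricellular protein, was at 28.7, 34.5, 23.1, 26.5 and 21.9 FPKM in Control, 47.5, 37.8, 37.7, 31.4 and 37.3 FPKM in AngII, and 32.1, 50.5, 30.4, 22.8 and 36.8 FPKM in AngII+QDG (AngII vs. Control log2 fold change 0.50, adjusted p = 0.113). Col1a1, a chain of fibrillar collagen, was at 2.81, 2.19, 1.45, 2.69 and 1.41 FPKM in Control, 6.79, 3.18, 2.56, 2.86 and 4.43 FPKM in AngII, and 2.94, 4.41, 3.17, 3.23 and 2.42 FPKM in AngII+QDG (0.64, adjusted p = 0.090). For Ccn2 only Control 2 lay above the lowest AngII mouse, and for Col1a1 Control 1 and Control 4 did. Ccn2 and Col1a1 were named after their values were seen.

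Markers of several kidney cell types differed in AngII vs. Control beside Smad7, Ltbp4, Pmepa1 and Tagln. The podocyte marker Podxl was at 44.2 to 52.6 FPKM in Control, 52.3 to 70.3 in AngII and 56.1 to 73.1 in AngII+QDG, and passed with a log2 fold change of 0.35 (adjusted p = 0.028). The 4 smooth muscle markers, which include Tagln, summed to 38.5 to 50.7, 43.0 to 97.8 and 52.9 to 61.2 FPKM, with Tagln alone passing. The 6 fibroblast and pericyte markers, which include Col1a1, summed to 17.9 to 31.9, 18.8 to 45.2 and 23.6 to 41.2 FPKM, and Pdgfrb passed (1.13, adjusted p = 0.047). Dcn, the decorin gene and the most abundant of that list, had a log2 fold change of the opposite sign (-0.49, adjusted p = 0.273). Pdgfrb was low, at 0 to 1.34 FPKM in Control, 2.12 to 2.72 in AngII and 1.04 to 5.04 in AngII+QDG. Its call, like the other marker calls except that of Tagln, was not checked under the alternatives. The 3 intercalated cell markers with values summed to 50.6 to 54.3, 58.4 to 82.3 and 62.2 to 84.3 FPKM, and Slc26a4 passed (0.49, adjusted p = 0.031). The 4 erythroid markers summed to 540.9 to 1350, 1109 to 1936 and 1550 to 2801 FPKM, with no call in AngII vs. Control and 3 of 4 higher at an unadjusted p under 0.05 in the limma fit (17.9% of all genes), and the globin gene Hba-a1, whose split of reads with its near-identical copy Hba-a2 is uncertain, passed in AngII+QDG vs. Control (1.17, adjusted p = 0.026). The 4 macrophage markers tested were below 0 in AngII vs. Control (median -0.37) with no call and none at an unadjusted p under 0.05 in the limma fit. Adgre1 was at 1.26 to 2.17 FPKM in Control and 0.763 to 1.19 in AngII (limma, adjusted p = 0.223). This separation was shared by 7.92% of all genes in either direction. Of the 6 proximal tubule markers 3 were above 0 and 3 below (median 0.01), with no call and 2 each way at an unadjusted p under 0.05 (17.9% of all genes higher and 4.83% lower). In AngII+QDG vs. AngII the 4 thick ascending limb markers were all higher at an unadjusted p under 0.05 in the limma fit (6.02% of all genes), with no call. The part of these cell types in the results for the pathway genes was not tested.

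The genes whose log2(FPKM + 1) followed each member most closely over the 15 mice, out of all tested and by Pearson's r, are given as a description, since the mice share groups and depth. They were Ptk7 (0.92) and Efnb2 (0.91) for Tgfb1, B9d2 (0.87) and E430018J23Rik (0.86) for Tgfb3, and Fam117a (0.92) and St3gal6 (0.89) for Ltbp1. For the receptors they were Acads and Ttyh3 (both 0.85) for Tgfbr1 and Hnrnpul1 (0.89) and Fxyd4 (0.86) for Tgfbr2. For the Smads they were Ilvbl (0.89) and Ogdhl (0.87) for Smad2, Tnks (0.89) and Ninl (0.84) for Smad3, and Zfand5 (0.92) and Acly (0.91) for Smad7. No other member stood among these genes.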

How the data were processed

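The authors sequenced rRNA-depleted kidney RNA as paired ends on an Illumina HiSeq and deposited 1 table of transcript values per mouse. The submitters' processing notes list limma and the genome build mm10, and the aligner is not given in the sources used here. The deposited values were taken as FPKM, a unit not named in the sources: multiplied by transcript length, 98.7% to 98.8% of low values per mouse (under 200 fragments) were whole multiples of 1 constant within 0.1 fragment. Of 31301 Ensembl identifiers 31244 matched GENCODE release M21 (GRCm38). FPKM was summed per gene over the transcripts present in all 15 files (40054, of which 11141 were assembled by the authors without a gene name and could not enter a gene's sum).

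The 12366 genes that reached 1 FPKM in 5 or more mice were tested with limma 3.58.1 in R 4.3.3 on log2(FPKM + 1), in 1 model of 15 mice and 3 groups with 12 residual degrees of freedom, a trend and Benjamini-Hochberg adjustment over all genes tested. A call was an adjusted p under 0.05. Transcripts were tested the same way, and shares by exact two-sided permutation tests of 252 arrangements, whose smallest p is 0.00794. The number of fragments limits counting precision, and the spread between mice adds to it.

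The members and the lists of pathway and marker genes were chosen with earlier results of these data known. Genes named were all members, pathway genes called in any comparison, the most abundant gene of each list, and the 2 genes most like each member by Pearson's r. Ccn2, Col1a1, Itgb8, Itgb6, Itgav, Id1, Cdkn1a and the single marker genes were named after their values were seen. Alternatives were pseudocounts of 0.1 and 0.01, no filter, quantile normalization, median scaling, summing every listed transcript, no trend, fits of 2 groups and the omission of each mouse. The result of 1 marker gene is not reported here.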

Additional observations from a re-analysis of the deposited data

Results flagged for a closer look

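Values were screened for 1 mouse far from the other 4 of its group by Dixon's test (critical ratio of gap to range 0.71 at 95%), and 5 of 39 groups of 5 values were marked, where chance marks about 5%. Tgfbr1 was marked in every group: Control 1 at 1.69 FPKM (ratio 0.834), AngII 3 at 3.05 FPKM (ratio 0.751) and AngII+QDG 3 at 0.603 FPKM (ratio 0.792). The share of Tgfbr2 carried by ENSMUST00000061101 was low in Control 5, at 64.6% (ratio 0.923). The share of Tgfb1 in the summed FPKM of Tgfb1 and Tgfb3 was low in Control 4, at 87.8% (ratio 0.790).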

How the results depend on the processing

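No paired analysis was possible because the groups hold different mice and the labels give no numbers that pair them; the numbers 1 to 5 only name the mice within a group. Over all genes, the AngII vs. Control calls were 612 higher and 123 lower (83.3% higher), against 227 and 266 (46.0%) with quantile normalization and 210 and 286 (42.3%) with median scaling. AngII+QDG vs. AngII gave 65 and 159, then 97 and 97, and 68 and 99. AngII+QDG vs. Control gave 12 and 4, then 8 and 7, and 10 and 12. Members called in AngII vs. Control fell to 0 with quantile normalization, median scaling and fits of 2 groups, and were 0 to 1 when single mice were left out. Pathway genes called in AngII+QDG vs. Control were 0 to 1 (Smad1 without Control 2), and in AngII vs. Control 2 to 4. No alternative gave a member a call in the other comparisons. Transcript and share comparisons gave 0 calls throughout; at an unadjusted p under 0.05 limma gave 3 transcripts (of Tgfb1, Tgfbr2 and Smad7) in AngII vs. Control, and Smad7's was not called (adjusted p = 0.103 among 28812 transcripts).

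Log2 fold changes in AngII vs. Control turned under quantile normalization and median scaling for Acvr1b (-0.046 and -0.055), Bmp6 (-0.070 and -0.089), Smad2 (-0.00341 and -0.00986) and Tgfbr2 (-0.017 and -0.027), as did Furin in AngII+QDG vs. AngII under quantile normalization (0.020). Both scalings centre the changes by construction. With single mice left out, signs turned within these ranges in AngII vs. Control: Bmp6 -0.053 to 0.097, Ltbp1 -0.22 to 0.21, Smad3 -0.017 to 0.30, Smad5 -0.15 to 0.11 and Tgfbr1 -0.18 to 0.31. In AngII+QDG vs. AngII they were Furin -0.13 to 0.044, Id2 -0.043 to 0.080, Smad2 -0.051 to 0.095, Smad5 -0.22 to 0.012, Tgfb1 -0.034 to 0.092 and Tgfbr1 -0.46 to 0.18. In AngII+QDG vs. Control they were Smad5 -0.23 to 0.014, Tgfbr1 -0.46 to 0.30 and the Tgfb1 share of ligands -1.15 to 0.55 percentage points. The cause was not tested. Counts were lowest for Tgfb3, at 88 to 317 fragments per mouse.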

Other observations

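The 3 mice with low Tgfbr1 (Control 1, AngII 3 and AngII+QDG 3) were among the 6 in which the Smad2 transcript ENSMUST00000091831 was listed at 0. In these mice the summed Smad2 was at 9.34, 9.81 and 9.44 FPKM and Tgfbr2 at 13.1, 14.8 and 16.9 FPKM, of which 13.1 was the lowest Tgfbr2 value of the 15 mice. This was noticed in the values and not tested, and whether fragments of these genes stood under assembled transcripts without a gene name was not tested.

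Itgb8, an integrin subunit that releases latent TGF-beta, was at 5.45, 5.85, 5.64, 9.19 and 3.81 FPKM in Control, 9.86, 6.61, 9.68, 8.29 and 7.71 FPKM in AngII, and 4.26, 6.04, 4.51, 6.64 and 5.19 FPKM in AngII+QDG. Control 4 lay among the AngII mice and the other 4 Control mice below them all. Its log2 fold change was 0.46 (adjusted p = 0.131) in AngII vs. Control and -0.58 (adjusted p = 0.105) in AngII+QDG vs. AngII, and it passed in AngII vs. Control without Control 4. The integrin subunits Itgb6 and Itgav, from the same list, were at -0.20 (adjusted p = 0.779) and 0.16 (adjusted p = 0.849) in AngII vs. Control in the limma fit. Id1, a target of the bone morphogenetic protein branch, was at 11.6, 22.5, 14.98, 13.6 and 20.4 FPKM in Control, 22.7, 19.0, 39.4, 27.7 and 17.98 FPKM in AngII, and 12.3, 19.0, 17.0, 21.3 and 16.0 FPKM in AngII+QDG, with adjusted p = 0.147 and 0.272. These genes were picked after their values were seen.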
